A study of Homo sapiens with 2 samples.

Results

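The genes described here are PD-L1 (CD274), members of the B7 family, other ligands of immune checkpoint receptors and the proteins that stabilise PD-L1 on the cell. Their 10 symbols were CD274, PDCD1LG2, CD276, ICOSLG, VTCN1, PVR, NECTIN2, LGALS9, CMTM6 and CMTM4, and each matched 1 row among the 60616 genes of the tables. Of the 10 genes, 9 had reads in both libraries and VTCN1 had none in either. HSC-3 is a line of human oral squamous cell carcinoma. One bulk RNA-seq library came from HSC-3 cells given 0.1% DMSO, the vehicle, and the other from HSC-3 cells given 1 µM FIN56 for 48 h. The labels state the time for the FIN56 cells only. FIN56, a small molecule, brings about ferroptosis, a form of cell death driven by lipid peroxidation, through loss of the lipid repair enzyme GPX4. By the study's description, the FIN56 concentration given to the HSC-3 cells for RNA-seq was sublethal. The study pursued PD-L1 in these cells, and the question asked of the genes here is whether the higher CD274 level of the FIN56 library was shared by other ligands.

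Checkpoint ligands are surface proteins that tune the activity of T cells and natural killer cells. PD-L1 and PD-L2 (PDCD1LG2) bind the inhibitory receptor PD-1, and PVR and NECTIN2 bind the inhibitory receptor TIGIT as well as the activating receptor CD226. CMTM6 and CMTM4 are membrane proteins that bind PD-L1 and keep it from lysosomal degradation. Squamous carcinoma cells often carry PD-L1, whose transcription is induced by interferon-γ through JAK kinases and the factor IRF1.

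With 1 library per condition, the conditions were compared without a test and without p-values. Levels are FPKM, fragments scaled by transcript length and sequencing depth, which can be set side by side between genes. A gene was called higher at an FPKM ratio of FIN56 over DMSO of 1.5 or more and lower at 1/1.5 or less. Beside it stands the ratio of expected counts scaled by the library totals of 70184517 (DMSO) and 73062209 (FIN56), with an exact 95% Clopper-Pearson interval. Since reads carry no molecular identifiers they do not count separate molecules, and the interval covers counting error only, not the spread between cultures. The labels do not say how many cultures fed each library, and in a bulk library fewer cells carrying a transcript and less of it per cell cannot be told apart.

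All 10 squamous carcinoma markers listed were expressed, among them keratin 5 (KRT5) with an FPKM of 2078 with DMSO and 1647 with FIN56. Of 10 T and NK cell markers, 7 had no reads in either library, among them CD3E, CD8A and the leukocyte antigen PTPRC, and the summed FPKM of the list was 1.02 with DMSO and 1.80 with FIN56. Most of that sum was TRAC, the constant region of the T-cell receptor α chain, which was called higher, with an FPKM of 0.83 and 1.42 from 51 and 91 counts, a ratio of 1.71 and a count interval of 1.20 to 2.46. Of 8 myeloid markers, AIF1 and FCGR3A had no reads. The sum of 61.7 with DMSO and 30.4 with FIN56 was mostly CD68, a lysosomal protein that is not limited to myeloid cells, at 57.3 and 24.6. CD14 went the other way, with an FPKM of 3.62 with DMSO and 5.15 with FIN56 from 339 and 492 counts. Its ratio was 1.42, below the threshold, with a count interval of 1.21 to 1.61. CSF1R had 110 counts with DMSO and 106 with FIN56, and ITGAM had 42 and 31. The part of other cells in the ligand values was not tested.

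Of the 10 genes, 2 were called higher, CD274 and PVR, and 0 were called lower. The study chose CD274 partly on these libraries, and among the other 8 measured genes only PVR was called higher. Among all 24454 genes above 0 in both libraries, 14.7% were called higher and 17.3% lower. Many of those genes have few reads, and of the 14256 with 100 expected counts or more over both libraries 5.39% were called higher and 8.85% lower. All 9 measured ligands and stabilisers had at least 100 counts. Their FPKM ratio was above 1 in 8, and the exception was ICOSLG. Of the 14256 genes with that many counts, 7490 had an FPKM ratio above 1. The median log2 FPKM ratio of the 9 was 0.23, that of the 8 without CD274 was 0.16, and that of all genes with at least 100 counts was 0.02.

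**Figure D1:**
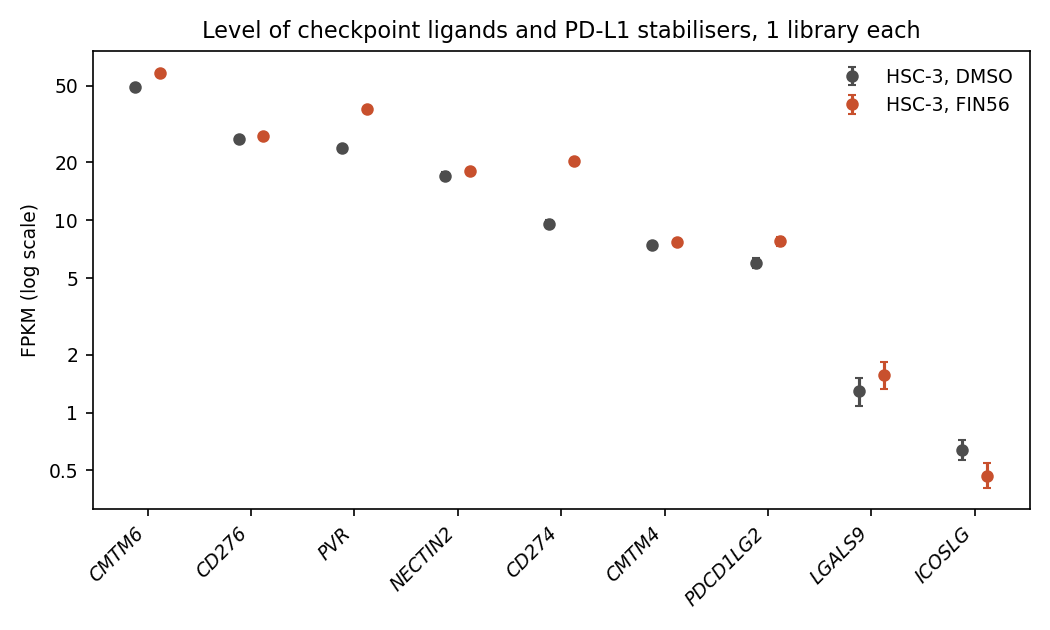
FPKM on a log scale of the 9 measured genes in the DMSO library (grey) and the FIN56 library (orange), 1 point per library, with bars for the counting error of the expected count only. CD274 went from 9.58 to 20.4 and PVR from 23.8 to 38.1. For each of CD276, NECTIN2 and CMTM4, the DMSO value and the FIN56 value lay close together.

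CD274 (ENSG00000120217, GRCh38 chr9:5450503-5470566, plus strand) encodes PD-L1. Its FPKM stood at 9.58 with DMSO and 20.4 with FIN56, from 1830 and 4432 counts. The FPKM ratio was 2.13 and the count ratio 2.33, with an interval of 2.20 to 2.46. The study chose this gene among those raised both in these libraries and in spatial data of tumors, so its values are a description. It also reported more CD274 mRNA by RT-qPCR, and more PD-L1 protein, in HSC-3 cells given FIN56. An FPKM ratio as high as that of CD274 or higher was held by 1.19% of the genes with at least 100 counts. The FPKM ratio was the smaller one. The effective length implied by counts and FPKM, which restates that gap in bases, went from 2722 to 2976 bases. Of those genes, 18.2% reached or passed this difference in length.

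The sequence upstream of CD274 is shown because it holds the letters that interferon-responsive factors recognise. Windows of 250 bases before the RefSeq start of each gene (GRCh38.p14) were searched on both strands for 4 motifs. They were the interferon-stimulated response element core (GAAA, any 2 bases and GAAA again), the STAT palindrome TTCNNNGAA, the AP-1 site TGANTCA and the NF-kB consensus. Among 34788 distinct windows, 3.02% held the first, 6.57% the STAT palindrome, 6.59% the AP-1 site and 9.95% the NF-kB consensus. The window of CD274 held the first motif at 2 overlapping places on the minus strand, at 208 to 199 and 202 to 193 bases before the start, and the STAT palindrome once, at 125 to 117 bases before it. The window of CD276 held the NF-kB consensus in 1 stretch of 10 bases, 68 to 59 bases before the start, read on both strands. The other 7 genes with a window (ICOSLG, VTCN1, PVR, NECTIN2, LGALS9, CMTM6 and CMTM4) held none of the 4, which says only that these letters are not in these windows. PDCD1LG2 was not matched. The stretches below, on the plus strand at chr9:5450292-5450502 for CD274 and chr19:44643660-44643797 for PVR, end before the earliest annotated transcript. PVR is set beside CD274 as the other gene called higher, and capitals mark motif matches.
CD274: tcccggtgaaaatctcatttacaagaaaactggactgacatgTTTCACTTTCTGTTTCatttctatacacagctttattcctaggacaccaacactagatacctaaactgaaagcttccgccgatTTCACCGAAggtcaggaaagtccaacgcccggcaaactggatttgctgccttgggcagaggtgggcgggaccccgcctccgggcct
PVR: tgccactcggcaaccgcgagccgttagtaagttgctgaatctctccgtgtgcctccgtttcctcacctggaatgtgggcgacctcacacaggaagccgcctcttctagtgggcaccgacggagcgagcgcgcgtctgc
A match is a description of the letters and no evidence that a factor bound there.

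PDCD1LG2 (ENSG00000197646, chr9:5510531-5571282, plus strand) encodes PD-L2, the other PD-1 ligand, and lies downstream of CD274 with a gap of 40.0 kb. Its FPKM stood at 6.01 with DMSO and 7.79 with FIN56, from 985 and 1328 counts. The FPKM ratio was 1.30, below the threshold of 1.5, and the count ratio was also 1.30, with an interval of 1.19 to 1.41. Its implied effective length was nearly the same in both libraries, 2335 and 2333 bases, and the annotation holds 1 transcript of it. The PDCD1LG2 ratio was thus above 1 by more than the counting error and below that of CD274. The CD274 count ratio was 1.80 times that of PDCD1LG2, with an exact conditional interval of 1.63 to 1.99. In TPM, a share of all transcripts that sums to the same total in each library, the PD-1 ligands together went from 23.3 to 43.1, and the share of CD274 in that sum from 61.4% to 72.3%.

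An antisense long non-coding RNA, AL162253.2, overlaps both PD-1 ligand genes on the minus strand. It had 164 counts in each library and an FPKM of 2.74 with DMSO and 2.16 with FIN56. By the labels the library kit keeps the strand, but whether counting used it is not given in the sources used here. Reads of the antisense gene and of the ligands may thus be mixed, which was not tested. The expected counts of CD274 and PDCD1LG2 were whole numbers in both libraries, within 0.005. These 164 counts stand beside 1830 and 4432 for CD274 and beside 985 and 1328 for PDCD1LG2, a larger share for the latter.

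**Figure D2:**
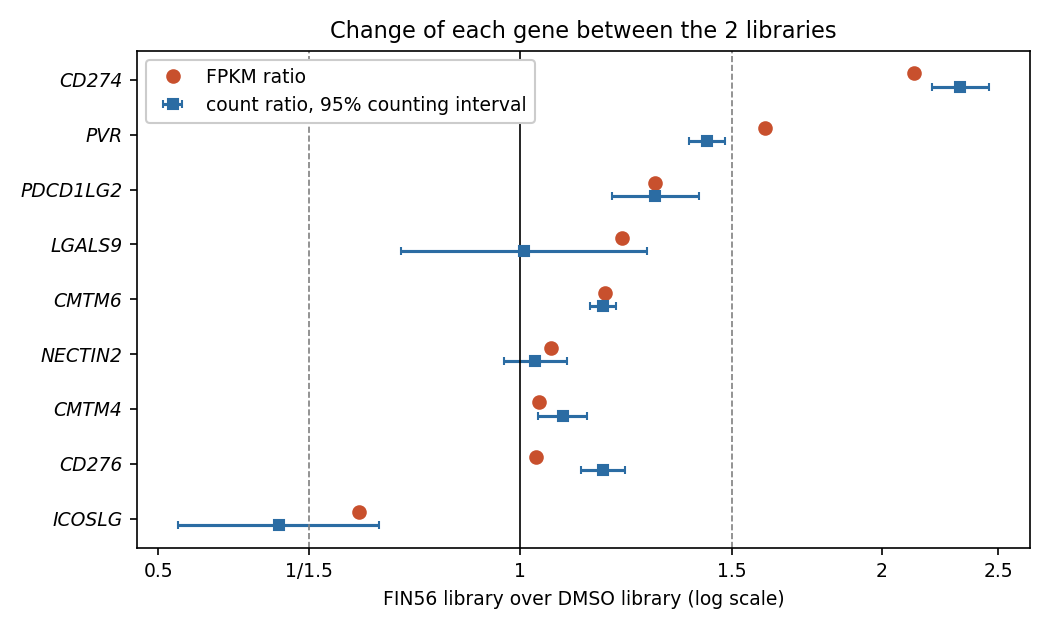
FIN56 over DMSO on a log scale for each measured gene, as the ratio of FPKM (orange circles) and of scaled expected counts (blue squares, with 95% counting intervals), with dashed lines at 1.5 and 1/1.5. CD274 is past 1.5 by both ratios, PVR by FPKM only (1.60 against a count ratio of 1.43), and ICOSLG is past 1/1.5 by counts only (0.630 against an FPKM ratio of 0.734).

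PVR (ENSG00000073008, chr19:44643798-44666162, plus strand) encodes CD155, the high-affinity ligand of TIGIT. Its FPKM stood at 23.8 with DMSO and 38.1 with FIN56, from 5476 and 8156 counts. The FPKM ratio of 1.60 was past the threshold, and 3.75% of the genes with at least 100 counts reached it. The count ratio was 1.43, with an interval of 1.38 to 1.48 that lies below 1.5. The call of PVR therefore held by FPKM and not by counts. The implied effective length fell from 3274 to 2931 bases, a relative difference that 13.7% of the genes with at least 100 counts reached or passed, and the annotation holds 12 PVR transcripts of 356 to 6466 bases. The share of counts given to each transcript was not analysed here. CEACAM19 overlaps PVR on the same strand and had 321 counts with DMSO and 251 with FIN56.

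NECTIN2 (ENSG00000130202, chr19:44846175-44889223, plus strand) encodes CD112, the ligand of PVRIG and a weaker ligand of TIGIT. Its FPKM stood at 17.0 with DMSO and 18.0 with FIN56, from 2057 and 2205 counts. By FPKM the ratio was 1.06, and the count ratio of 1.03 had an interval of 0.969 to 1.09, which includes 1. The count intervals of the TIGIT ligands PVR and NECTIN2 did not overlap. Their summed TPM went from 61.0 to 85.8, and the share of PVR in the sum from 58.4% to 67.9%.

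CD276 (ENSG00000103855, chr15:73683966-73714514, plus strand) encodes B7-H3, a B7 protein common on carcinoma cells. Its FPKM stood at 26.6 with DMSO and 27.4 with FIN56, from 4080 and 4983 counts. The FPKM ratio was 1.03 and the count ratio 1.17, with an interval of 1.13 to 1.22. The implied effective length, which restates the gap between the ratios, went from 2187 to 2488 bases, and the annotation holds 19 transcripts. Of the genes with at least 100 counts, 10.7% reached or passed this relative difference in length. CD276 was far below the CD274 ratio on either scale.

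ICOSLG (ENSG00000160223, chr21:44215382-44241446, minus strand) encodes the ligand of the co-stimulatory receptor ICOS. It had the lowest level of the measured genes, with an FPKM of 0.64 with DMSO and 0.47 with FIN56 from 273 and 179 counts. Its FPKM ratio was 0.734, and the rounding of the deposited values allows 0.721 to 0.748. The count ratio was 0.630, with an interval of 0.519 to 0.763. Among the measured genes, only ICOSLG had an interval below 1, and its call as lower held by counts and not by FPKM.

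VTCN1 (ENSG00000134258, chr1:117143587-117210960, minus strand) encodes the inhibitory ligand B7-H4. It had 0 counts in both libraries. A count of 0 allows up to 3 counts (a one-sided 95% limit), which is a CPM (counts scaled to a fixed library size) of 0.0427 with DMSO and 0.0411 with FIN56. No fold change is given for it.

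LGALS9 (ENSG00000168961, chr17:27629798-27649560, plus strand) encodes galectin-9, a ligand of the receptor TIM-3. Its FPKM stood at 1.29 with DMSO and 1.57 with FIN56, from 143 and 150 counts. The ratio of FPKM was 1.22, while the count ratio of 1.01 had an interval of 0.796 to 1.28. The implied effective length, which restates the gap between the ratios, went from 1581 to 1305 bases. Of the genes with at least 100 counts, 5.29% reached or passed this relative difference in length. A difference was not detectable in the counts at this depth. Its near-identical copies LGALS9B and LGALS9C took more reads than LGALS9 itself. LGALS9B had 513 counts with DMSO and 381 with FIN56, and LGALS9C had 434 and 402. The split of reads among these copies is an estimate, so the LGALS9 value is uncertain.

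CMTM6 (ENSG00000091317, chr3:32481312-32502852, minus strand) encodes the main stabiliser of PD-L1 at the cell surface. It had the highest level of the measured genes, with an FPKM of 49.6 with DMSO and 58.4 with FIN56 from 11093 and 13534 counts. Its FPKM ratio was 1.18 and the count ratio 1.17, with an interval of 1.14 to 1.20. CMTM4 (ENSG00000183723, chr16:66614750-66696743, minus strand), which can stand in for CMTM6, had an FPKM of 7.44 with DMSO and 7.72 with FIN56. Its FPKM ratio was 1.04 and its count ratio 1.09, with an interval of 1.04 to 1.14. Both stabilisers were above 1 by more than the counting error and below the threshold. The quotient of CMTM6 to CD274 in FPKM was 5.18 with DMSO and 2.87 with FIN56, so the ligand transcript gained on that of its stabiliser.

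The order of levels shifted mainly through CD274 and PVR. In DMSO the order of FPKM from high to low was CMTM6, CD276, PVR, NECTIN2, CD274, CMTM4, PDCD1LG2, LGALS9 and ICOSLG, and no neighbours had overlapping counting intervals. In FIN56 it was CMTM6, PVR, CD276, CD274, NECTIN2, PDCD1LG2, CMTM4, LGALS9 and ICOSLG, where only PDCD1LG2 and CMTM4 (7.79 and 7.72) overlapped. PVR passed CD276, CD274 passed NECTIN2, and PDCD1LG2 came level with CMTM4. The spread between cultures is unknown, so neighbours in either order may not differ beyond it. The summed TPM of the 10 genes was 212.3 with DMSO and 274.9 with FIN56.

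None of the other 8 measured genes matched the ratio of CD274. PVR came closest, and the CD274 count ratio was 1.63 times that of PVR, with an exact conditional interval of 1.52 to 1.74. By FPKM the same quotient was 1.33. Against CD276 it was 1.98 by counts (1.85 to 2.13), against NECTIN2 2.26 (2.08 to 2.45), against CMTM6 1.99 (1.87 to 2.11) and against CMTM4 2.14 (2.0 to 2.30). The widest intervals were those of the genes with few counts, 1.81 to 2.94 around 2.31 for LGALS9 and 3.02 to 4.52 around 3.69 for ICOSLG. All 8 intervals lay above 1, for counting error only.

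**Figure D3:**
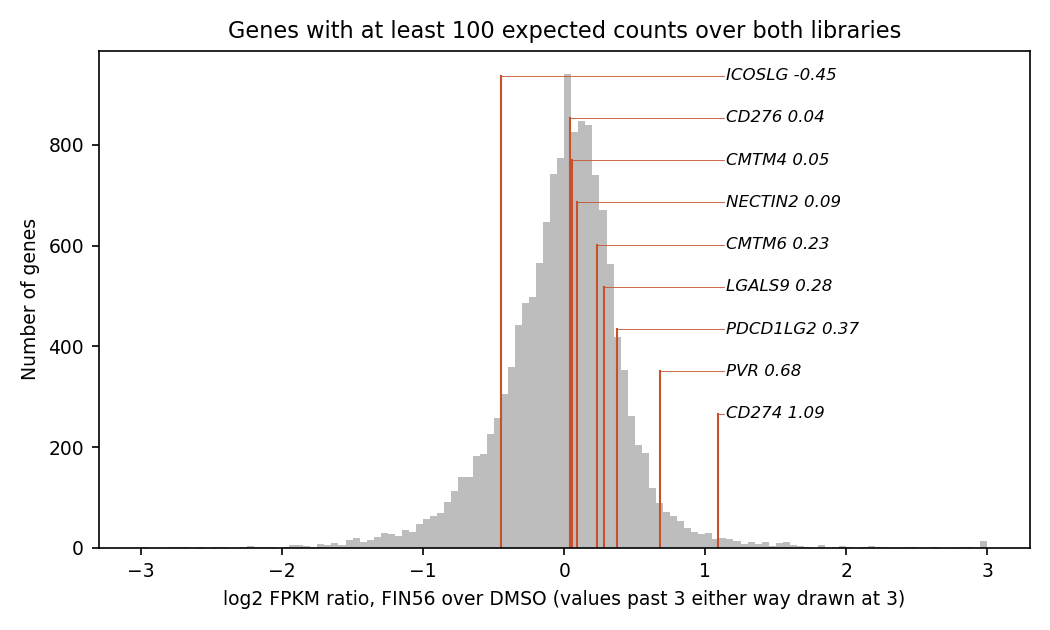
Number of genes by log2 FPKM ratio of FIN56 over DMSO for the 14256 genes with 100 expected counts or more, with the 9 measured ligands and stabilisers marked by vertical lines and values past 3 either way drawn at 3. CD274 (1.09) and PVR (0.68) stand in the right flank, ICOSLG (-0.45) in the left, and the other 6 lie between 0.04 and 0.37.

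The counting intervals are narrow at this depth, and a ratio apart from 1 was common. The interval lay above 1 for 6 of the 9 measured genes (CD274, PVR, PDCD1LG2, CMTM6, CD276 and CMTM4), below 1 for ICOSLG and included 1 for NECTIN2 and LGALS9. Among all genes with at least 100 counts it lay above 1 for 36.3% and below 1 for 35.7%. The expected counts were whole numbers for CD274, PDCD1LG2, CD276 and CMTM4, within 0.005, and were not in at least 1 library for the other 5 measured genes, as RSEM gives where reads map to more than 1 gene.

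The chromosome 9p24 genes around CD274 were described because CD274 and PDCD1LG2 are neighbours there, with JAK2 close by. The 22 genes other than CD274 started between -960.0 and 1270.4 kb from its start, and 15 had at least 100 counts. Their FPKM ratios ran from 0.833 to 1.56 with a median of 1.19, and 13 were above 1. Among all 14256 genes with that many counts, 7490 were above 1. The count interval lay above 1 for 11 of the 15, and for 36.3% of all genes with at least 100 counts. None of the 15 reached the CD274 ratio. Called higher was 1 of the 15, where 5.39% of all genes with at least 100 counts were called higher. It was the mitochondrial adenylate kinase AK3, with an FPKM of 29.8 with DMSO and 46.6 with FIN56 and a ratio of 1.56. PLGRKT, the nearest expressed gene upstream, had an FPKM of 28.3 and 33.5 and a ratio of 1.18. RIC1, the next downstream after PDCD1LG2, had a ratio of 1.19 (11.1 and 13.2). JAK2, the kinase of the interferon-γ receptor, had a ratio of 1.12 (3.57 and 4.01) and a count interval of 0.966 to 1.12.

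**Figure D4:**
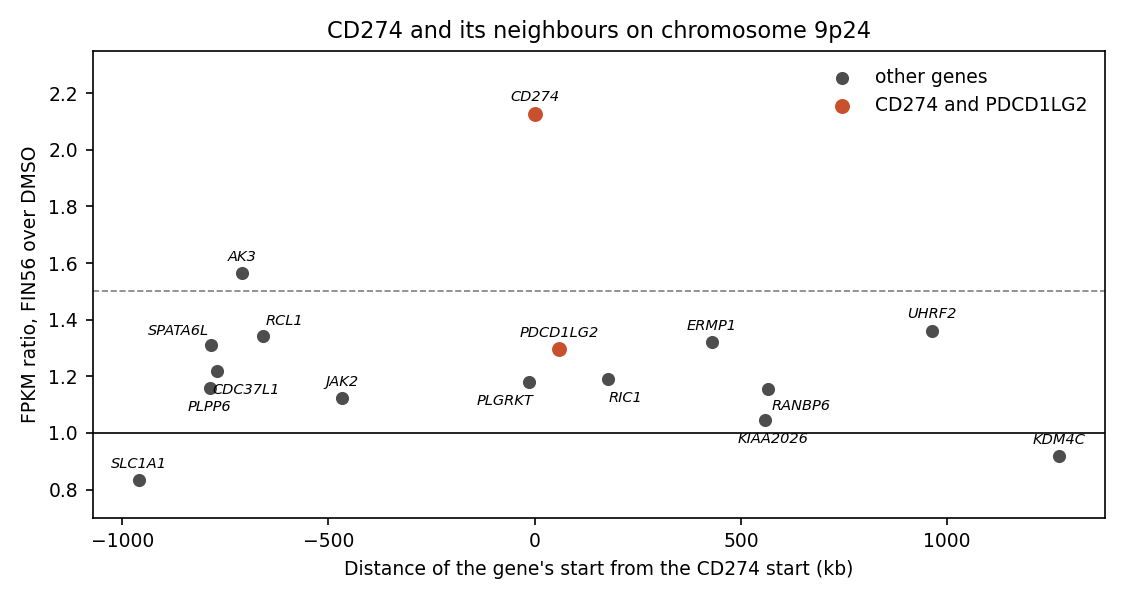
FPKM ratio of FIN56 over DMSO against the distance in kb of each gene's start from the CD274 start, for genes of 9p24 with at least 100 expected counts (CD274 and PDCD1LG2 in orange), with a solid line at 1 and a dashed line at 1.5. CD274 stands at 2.13 above 15 neighbours that lie between 0.833 and 1.56.

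Relatives of the 10 genes moved in both directions. Among all genes with at least 100 counts, 5.39% were called higher and 8.85% lower. Of 5 other B7 family genes, CD80, CD86 and HHLA2 had at most 14 counts in a library, and neither of the other two was called. VSIR, which encodes VISTA, had an FPKM of 26.7 with DMSO and 34.7 with FIN56 with a ratio of 1.30, and NCR3LG1, the ligand B7-H6 of the NK receptor NKp30, had 1.67 and 2.48. The NCR3LG1 ratio of 1.49 was just below the threshold, and its count interval was 1.35 to 1.63. VSIR and NCR3LG1 were named after their values were seen. Among 6 butyrophilin genes with at least 100 counts, 1 was called higher and 2 lower. BTN2A1, which takes part in recognition by γδ T cells, had an FPKM of 5.91 with DMSO and 10.5 with FIN56, a ratio of 1.78. ERMAP had 2.60 and 1.13, a ratio of 0.435, and BTN3A2 had 6.86 and 4.31, a ratio of 0.628.

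No other nectin or nectin-like gene was called among the 4 with at least 100 counts. Over all genes with that many counts, 5.39% were called higher and 8.85% lower. Of 4 other CMTM genes, CKLF, the chemokine-like founder of the family, was called lower, with an FPKM of 23.2 with DMSO and 14.4 with FIN56 (ratio 0.624). Of 5 other galectin genes, LGALS1 and LGALS3 were called lower and none higher. LGALS1, a galectin that acts on T cells, had an FPKM of 1183 with DMSO and 719 with FIN56, a ratio of 0.607. LGALS3 had 99.4 and 65.0, a ratio of 0.654. The median log2 FPKM ratio of the 4 other CMTM genes was -0.38, but over all 6 above 0 in both libraries it was 0.06, of the opposite sign. For the galectins it was -0.41 over those 5 genes and -0.34 over all 8 above 0 in both libraries, where it was -0.12 with TMM scaling of the counts and -0.08 with median-of-ratios scaling.

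Of 11 other inhibitory or co-stimulatory ligands with at least 100 counts, 2 were called higher and 2 lower. The shares over all genes with that many counts were 5.39% higher and 8.85% lower. NT5E, which encodes CD73, the enzyme that makes immunosuppressive adenosine, had an FPKM of 116.8 with DMSO and 201.3 with FIN56, and its count ratio of 1.72 had an interval of 1.69 to 1.75. CEACAM1, another ligand of TIM-3, had 0.43 and 1.25, a ratio of 2.91 from only 61 and 156 counts. CD40, a co-stimulatory receptor, had 7.83 and 3.97, a ratio of 0.507, and TNFRSF14, the ligand HVEM of BTLA, had 5.06 and 3.35, a ratio of 0.662. The median log2 FPKM ratio of the 11 was -0.19, and over all 15 above 0 in both libraries it was 0.14, of the opposite sign.

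**Figure D5:**
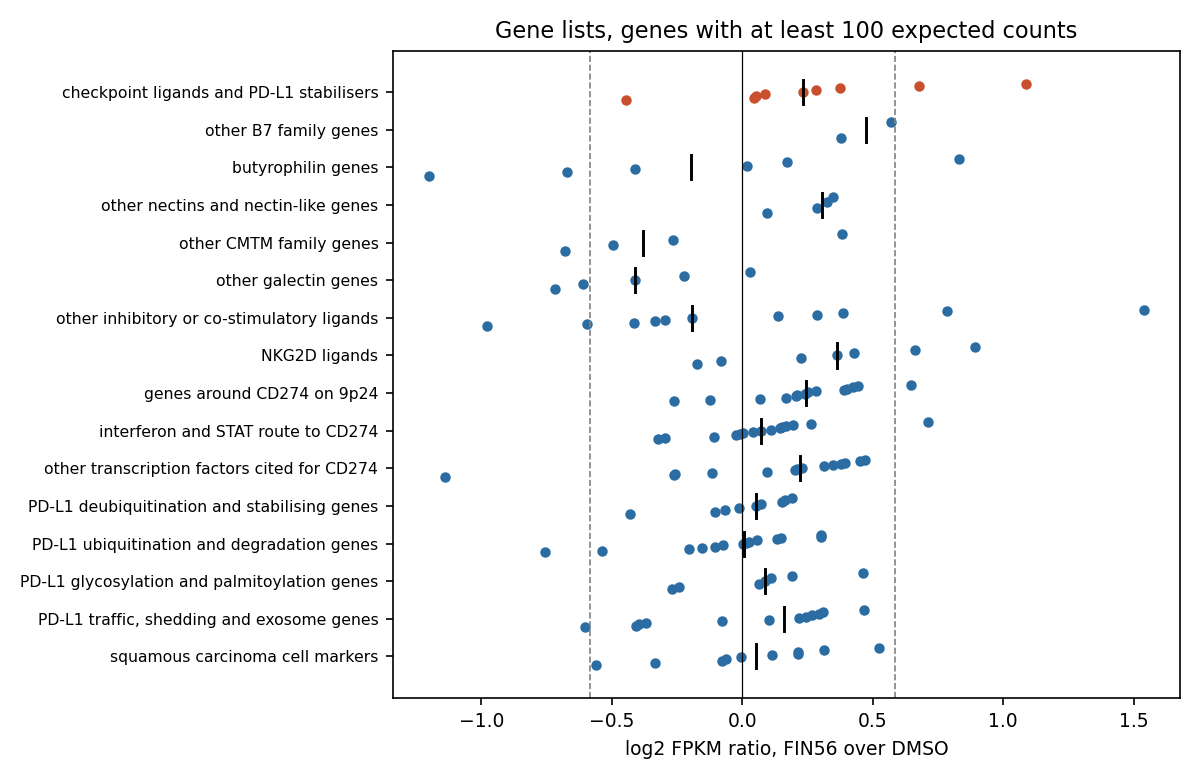
log2 FPKM ratio of FIN56 over DMSO for each gene with at least 100 expected counts in the gene lists used here, 1 point per gene, with a black bar at the median of each list and dashed lines at a ratio of 1.5 and 1/1.5. The ligands and stabilisers (orange) hold CD274 at 1.09 and PVR at 0.68, and each list of regulators of PD-L1 has at most 1 gene past the dashed lines.

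Most genes known to act on PD-L1 lay inside the thresholds, as did most of all genes with at least 100 counts. Of the latter, 5.39% were called higher and 8.85% lower. Of 15 genes of the interferon and STAT route to CD274, 1 was called higher, the feedback inhibitor SOCS3, with an FPKM of 13.3 with DMSO and 21.8 with FIN56 and a ratio of 1.64. IRF1 had a ratio of 1.08 (51.9 and 56.1) and was named because a motif of its family was searched. Of 14 other transcription factors tied to CD274, the growth-response factor EGR1 was called lower, with 10.9 and 4.96 and a ratio of 0.454. RELA, an NF-kB subunit named for the same reason, had a ratio of 1.39 (69.8 and 96.8), while NFKB1, another subunit, had one of 0.836 (28.66 and 23.97). Factor transcripts do not show the activity of the factors.

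Of all genes with at least 100 counts, 5.39% were called higher and 8.85% lower. None of 9 genes for deubiquitination or stabilisation of PD-L1 was called, and none of 7 genes for its glycosylation or palmitoylation. Of 14 genes for its ubiquitination and degradation, KLHL22, a Cullin-3 adaptor, was called lower, with an FPKM of 12.8 with DMSO and 7.61 with FIN56 and a ratio of 0.593. Of 12 genes for its traffic, shedding and release in exosomes, the matrix metalloprotease MMP13 was called lower, with 0.88 and 0.58, a ratio of 0.659 from 152 and 109 counts. These genes act on the protein, which was not measured in these libraries.

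The receptors of the ligands were near the detection limit. PDCD1, CTLA4 and TIGIT had no reads in either library, and the summed FPKM of 14 checkpoint receptors of lymphocytes was 1.99 with DMSO and 1.46 with FIN56. CD226, the activating receptor of PVR and NECTIN2, had an FPKM of 0.21 with DMSO and 0.10 with FIN56, from 58 and 45 counts. Its FPKM ratio of 0.476 was called lower, as for 8.85% of all genes with at least 100 counts. The count ratio of CD226 was 0.745, and its interval of 0.493 to 1.12 included 1. Its implied effective length was 3935 bases with DMSO and 6159 with FIN56.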

How the data were processed

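RNA-seq of HSC-3 cells gave 1 DMSO and 1 FIN56 library. The study's methods name these steps for tumor samples and are read here as holding for HSC-3 too. The authors aligned reads with STAR 2.6.1a to GRCh38 and estimated with RSEM 1.3.1 the deposited expected counts per gene, which are unscaled and can be fractional, and the deposited FPKM and TPM, which are scaled for library size and effective length. The authors also deposited rlog values, a log2 scale from DESeq2 1.26.0 that shrinks differences between libraries, in these data also for genes with many counts. FPKM is printed to 2 decimals, which limits the ratios of low genes.

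Genes were matched by the symbol in the row name, and 99.7% of the Ensembl IDs were found in GENCODE 44 (GRCh38), which is later than the authors' annotation and gave all gene positions. FPKM ratios needed a value above 0 in both libraries and no pseudocount, and 1.5 is the fold criterion of the study. Expected counts were rounded to whole numbers for counting intervals (scipy 1.17.1, pandas 2.3.3, Python 3.11.15). The implied effective length is the count divided by FPKM and the library total. Scripts were tested on simulated data. Size factors for the alternatives came from edgeR 4.0.16 (TMM) and DESeq2 1.42.0 (median of ratios) in R 4.3.3. Alternatives changed the unit, scaling, pseudocount, filter and threshold, and those added after seeing the data are named as such. Promoter windows came from RefSeq and covered 9 of the 10 genes.

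The genes and lists were chosen with earlier results of these data known. Named genes were all 10 ligands and stabilisers, the genes of each other list with at least 100 counts over both libraries and a ratio past the threshold, the nearest expressed genes around CD274, and the 5 protein-coding genes closest to CD274 in log2 FPKM. Other named genes (markers, receptors, genes with few counts, genes that overlap or copy a ligand gene, and those stated in the text) were named after their values were seen. The time of the DMSO treatment is not in the labels.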

Additional observations from a re-analysis of the deposited data

How the results depend on the processing

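With 1 library per condition, no replicate could be left out. No paired analysis was possible because there is only 1 library of each kind. The CD274 ratio of 2.13 was 2.32 with TMM scaling of the counts, 2.39 with median-of-ratios scaling, 2.33 with library totals and 1.42 on the authors' rlog scale, which shrinks differences by construction and put CD274 below 1.5. The number of ligands and stabilisers called higher went from 2 to 1 with TMM, with median of ratios, with library totals and at a threshold of 2, and to 0 on the rlog scale. CD274 was the 1 left, while the PVR ratio was 1.43 with TMM, 1.47 with median of ratios, 1.43 with library totals and 1.18 on the rlog scale. The number called lower went from 0 to 1 with the 3 count scalings, which was ICOSLG at 0.629, 0.646 and 0.630. The median log2 ratio of 0.23 was 0.11 on the rlog scale and 0.12 with a pseudocount of 1 FPKM. The CD274 ratio stayed above that of every other measured gene under the 7 alternatives of unit, scaling and pseudocount, by 1.21 times at the least, against PVR. Over those 7, the median of all genes with at least 100 counts moved by at most 0.0315 on the log2 scale.

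Over all genes, 3583 were called higher and 4240 lower. On the rlog scale these were 7 and 16, with a pseudocount of 1 FPKM 476 and 785, with only genes of FPKM 1 or more in each library kept 489 and 855, with only genes of 10 counts or more in each library kept 1331 and 1944, and at a threshold of 2 2088 and 2384. With at least 100 counts over both libraries, a filter added after seeing the data, they were 768 and 1261. The filters leave fewer genes by construction.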

Other observations

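The ligands of NKG2D, an activating receptor of NK cells, had 2 of 7 genes with at least 100 counts called higher and 0 lower, where 5.39% of all genes with that many counts were called higher and 8.85% lower. Their median log2 FPKM ratio was 0.36, and 0.29 over all 8 genes. ULBP3 had an FPKM of 2.27 with DMSO and 3.59 with FIN56, a ratio of 1.58 with a count interval of 1.41 to 1.78. ULBP1 had 0.35 and 0.65, a ratio of 1.86 from 77 and 148 counts. MICB, the most abundant of them and named after its values were seen, had 35.9 and 42.0, a ratio of 1.17.

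TNFSF4, which encodes the co-stimulatory ligand OX40L and was named after its values were seen, had 16 counts with DMSO and 77 with FIN56, a count ratio of 4.62 with an interval of 2.67 to 8.49. It lay below the 100 counts required of named genes.

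The 5 protein-coding genes closest to CD274 by Euclidean distance over log2 FPKM in the 2 libraries, among 12105 searched, were LY96, PRKAB1, AIM2, THUMPD2 and RO60. LY96, the co-receptor MD-2 of TLR4, had an FPKM of 10.1 with DMSO and 20.1 with FIN56. PRKAB1, a subunit of the energy sensor AMPK, had 10.4 and 21.8. AIM2, a sensor of DNA in the cytosol, had 8.94 and 18.6. THUMPD2 had 9.92 and 18.3, and RO60, an RNA-binding autoantigen, had 11.2 and 20.9. The RO60 ratio was 1.88 by FPKM and 1.35 by counts, while the other 4 had count ratios between 1.84 and 2.08. A likeness over 2 libraries is a likeness of 2 levels only.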
